A study of Sus scrofa with 14 samples.

Results

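The 10 genes described here encode the 4 ERBB receptor tyrosine kinases (EGFR, ERBB2, ERBB3 and ERBB4) and 6 of their ligands (TGFA, AREG, EREG, BTC, HBEGF and NRG1). They were chosen by name as one signalling family and looked up by symbol in the gene tables of the pig mammary data, which together list 30071 gene IDs. By symbol 9 of them were found. BTC is listed without a symbol under ENSSSCG00000008965, the ID that the reference name table pairs with BTC and that is present in the tables of all 14 libraries, and it was added by that ID. ERBB3 (ENSSSCG00000020725) has its symbol in 12 of the 14 tables and only its ID in the 2 tissue sections.

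Single-nucleus RNA was sequenced from mammary glands (Sus scrofa) of 2 sows at each of 5 stages, day 90 of gestation (G90), day 0 (L0) and day 20 (L20) of lactation, and day 2 (PI2) and day 7 (PI7) after the start of natural involution. One Visium tissue section came from G90 and one from PI2, and single cells from milk were profiled at L0 and at L20 with 1 library each. According to the study's methods the sows were multiparous and in their second breeding cycle. The labels name no treatment or genotype, and differ between samples only in stage and in the kind of sample. Values are unique molecular identifiers (UMIs), summed over the nuclei of a gland or of a class in a gland and given as CPM, counts scaled to a common total of that sum.

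ERBB receptors sit in the cell membrane and signal as pairs. TGFA and AREG bind EGFR, whereas EREG, BTC and HBEGF bind both EGFR and ERBB4, and the neuregulin NRG1 binds ERBB3 and ERBB4. ERBB2 has no known soluble ligand and acts as the partner of the others, and ERBB3 has little kinase activity of its own. In the rodent mammary gland AREG is an estrogen-dependent ligand of duct growth, and ERBB4 is needed for full differentiation of the milk-producing epithelium. The ligands are made as membrane-anchored precursors and are released by proteases.

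Nuclei were assigned to classes by the markers they contained, with at least 2 markers of a class and more than of any other class. Of the nuclei kept from the 10 glands, 69861 (55.1%) were luminal, the epithelium that lines ducts and alveoli, and 22954 (18.1%) stayed unassigned. The 2 glands of L20 were unlike, with 7633 luminal nuclei in replicate 1 and 1406 in replicate 2, the latter also holding 418 of the 516 adipocyte nuclei. Casein genes took 0.0854% and 0.0107% of UMIs in the L20 glands against 1.13% and 0.827% at L0, so that the defining transcripts of milk were low in the glands labelled as day 20 of lactation. Between 18700704 and 53161349 UMIs were kept per gland. Pairs of libraries shared at most 284 barcodes (1.52% of the smaller library), and no library repeated a barcode. In sums over a whole gland, fewer cells of a type and less RNA per cell cannot be told apart.

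Among the receptors, EGFR, ERBB2 and ERBB4 were higher in luminal nuclei than in the mean of the other 9 classes, and so was the ligand TGFA. NRG1 was higher in myoepithelial and lymphatic endothelial nuclei, BTC in adipocytes and HBEGF in macrophages. In edgeR's quasi-likelihood test with the gland as a block, 12 pairs of member and class were called higher (Benjamini-Hochberg adjusted p under 0.05 and a log2 fold change over 1). AREG and EREG were left out of this test by the filter on low counts, so that 8 of the 10 members were tested. Luminal nuclei held 4 of the 8 tested members, beside 9.8% of all 11669 genes tested. NRG1 was on the other side in luminal nuclei, at a log2 fold change of -1.19 (SE 0.23, edgeR adjusted p = 7.73e-06).

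EGFR (ENSSSCG00000022126, Sscrofa11.1 chromosome 9, 139302410 to 139474632) is the receptor of TGFA and most of the other ligands here. Its mean was 683 ± 311 CPM (SD, n = 5 glands) in adipocytes, 368 ± 199 (SD, n = 10) in fibroblasts, 364 ± 156 (SD, n = 10) in luminal nuclei and 291 ± 128 (SD, n = 10) in myoepithelial nuclei, and the ranges of neighbours in this order overlapped. Mural nuclei (216 CPM) and B and plasma cells (112 CPM) followed, and endothelial, macrophage and T/NK nuclei had means of 68.3 to 92.9 CPM. Among the adipocyte sums, L20 replicate 2 had 418 nuclei and the lowest EGFR, 318 CPM, and the others had 12 to 26 nuclei each. The class means are over different sets of glands, and the 5 adipocyte glands include PI2 replicate 1 and PI7 replicate 2. Against the mean of the other classes EGFR was called higher in adipocytes (log2 fold change 1.85, SE 0.17, edgeR adjusted p = 3.87e-16), in luminal nuclei (1.498, SE 0.11, adjusted p = 3.21e-22) and in fibroblasts (1.34, SE 0.11, adjusted p = 1.35e-18). In adipocytes 2 of the 8 tested members were called, EGFR and BTC, beside 8.55% of all genes, and in fibroblasts EGFR was the 1 member called, beside 8.78%.

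EGFR differed between glands within each class. Luminal nuclei of the 2 glands had 393 and 419 CPM (G90), 240 and 243 (L0), 264 and 260 (L20), 661 and 267 (PI2), and 285 and 612 (PI7). PI2 replicate 1 and PI7 replicate 2 were the highest and stood apart from their stage partners. The same 2 glands were the 2 highest in each of the 7 classes with sums from all 10 glands, macrophages (155 and 140 CPM, others 17.6 to 87.6) and T/NK nuclei included. The cause was not tested.

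ERBB2 (ENSSSCG00000017497, chromosome 12, 22591621 to 22621384), the partner receptor, was led by luminal nuclei at 104 ± 40.1 CPM (SD, n = 10), followed by myoepithelial nuclei at 56.9 ± 30.9 (SD, n = 10) with an overlapping range. Its log2 fold change in luminal nuclei was 1.94 (SE 0.13, edgeR adjusted p = 1.17e-23). Luminal nuclei held 85.2% of all its UMIs in the glands, beside 72.7% for the ERBB3 row, whose class means ran from 82.7 to 162 CPM. Such shares also carry the number and the depth of luminal nuclei. By stage the luminal level was 106 and 103 CPM (G90), 47.5 and 59.8 (L0), 88.9 and 69.0 (L20), 158 and 156 (PI2), and 105 and 152 (PI7). Both L0 glands were lower than every other gland, and the PI2 glands were the 2 highest. Such orders were not counted over all genes, and no stage difference of ERBB2 was called.

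ERBB4 (ENSSSCG00000016160, chromosome 15, 113966573 to 115096984) is the neuregulin receptor of alveolar differentiation. Luminal nuclei had 116 ± 63.6 CPM (SD, n = 10), a log2 fold change of 1.49 (SE 0.16, edgeR adjusted p = 2.66e-14). The highest mean was in the B and plasma cell gate, 276 ± 212 CPM (SD, n = 9), where the lowest gland (PI2 replicate 2) had 90.4 CPM, the median 189 and the highest (L0 replicate 2) 682. The range overlapped that of luminal nuclei. Of the 695 nuclei in this gate 71.9% had exactly 2 markers of the class, and the smallest sum (G90 replicate 2) held 16 nuclei. ERBB4 was called higher in this gate (2.37, SE 0.21, adjusted p = 2.62e-16), the single member called in that class beside 7.15% of all genes. Over 19 alternative settings the log2 fold change ran from 1.43 to 2.89. The 9 sums held 259 ERBB4 UMIs in all.

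The row labelled ERBB3 (chromosome 5, 21474218 to 21495040) differed less between the classes than the other receptors and is uncertain as a measure of this receptor, for the values given here. Its mean ran from 82.7 ± 38.8 CPM (SD, n = 10) in macrophages to 162 ± 62.2 (SD, n = 10) in luminal nuclei, and the ranges of neighbouring classes overlapped throughout. In luminal nuclei its log2 fold change was 0.92 (SE 0.13, edgeR adjusted p = 6.77e-10), under the fold required for a call. Over the 91 sums of class and gland the 3 genes most like it were RPS3A (r = 0.79), RPLP1 (0.75) and RACK1 (0.73), of which 2 are ribosomal proteins and the third binds the ribosome. Its r with the summed level of 57 ribosomal protein genes was 0.36 over these 91 sums and 0.87 over 12 milk sums, which share 2 libraries.

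In milk the same row was 4973 and 5433 CPM in T/NK cells at L0 and L20, 1382 and 1617 in macrophages, 1266 and 1694 in luminal cells and 400 and 439 in neutrophils. As a share of the UMIs of 57 ribosomal protein genes these were 3.35% and 3.52%, 2.64% and 2.74%, 2.60% and 2.90%, and 2.99% and 3.33%. The level thus differed widely between classes while its ratio to the ribosomal genes stayed within 2.60% to 3.52%. In gland nuclei the share was less even, from 2.05% in G90 replicate 2 to 8.75% in L0 replicate 2 over all nuclei, and the sections had 0.599% (G90) and 0.866% (PI2). In RefSeq the ribosomal gene RPS26 ends 40526 bases before ERBB3 and PA2G4 begins 956 bases after it on the same strand. Neither symbol, nor the ID paired with RPS26, was found in the 14 gene tables used here. Whether reads of a neighbouring gene are counted in this row was not tested, and no statement on the ERBB3 receptor is drawn from it.

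Among the ligands, TGFA (ENSSSCG00000008326, chromosome 3, 71948232 to 72054257) was called in luminal nuclei alone of the 10 classes. Its mean was 312 ± 174 CPM (SD, n = 10) in luminal nuclei, 83.2 ± 47.0 in myoepithelial and 69.0 ± 26.8 in T/NK nuclei. The log2 fold change of luminal nuclei was 2.74 (SE 0.14, edgeR adjusted p = 1.13e-32). Of its UMIs 86.9% were luminal, beside 72.7% of those of the ERBB3 row, shares that also carry the number and depth of luminal nuclei. The 2 glands of a stage differed widely. Luminal nuclei had 672 and 161 CPM (G90), 155 and 266 (L0), 209 and 420 (L20), 409 and 146 (PI2), and 215 and 464 (PI7). At each stage 1 gland had at most 215 CPM and the other at least 266.

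NRG1 (ENSSSCG00000015839, chromosome 15, 52625550 to 53688003), the neuregulin, was called in 2 classes. In myoepithelial nuclei, the contractile cells around the alveoli, it was 1119 and 753 CPM (G90), 272 and 314 (L0), 266 and 454 (L20), 392 and 131 (PI2), and 349 and 430 (PI7). The G90 glands were the 2 highest, an order not counted over all genes, and no stage difference of NRG1 was called in this class. Lymphatic endothelial nuclei had a lowest value of 139 CPM (L20 replicate 1), a median of 459 and a highest of 932 (G90 replicate 1). The log2 fold change was 2.69 (SE 0.21, edgeR adjusted p = 7.77e-21) in myoepithelial and 2.83 (SE 0.21, adjusted p = 1.76e-22) in lymphatic endothelial nuclei, and NRG1 was the one member called in each, beside 7.79% and 8.1% of all genes. Blood endothelial nuclei came next at 141 ± 85.7 CPM (SD, n = 10) and overlapped both. No member was called higher in blood endothelial or mural nuclei, where 8.35% and 7.67% of all genes were called and where 5 and 2 of the 8 tested members had an unadjusted p under 0.05 in one or the other direction (edgeR), beside 37.4% and 28.8% of all genes tested. DESeq2 called 0 members in both as well, beside 944 and 1025 genes.

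BTC (chromosome 8, 70645721 to 70697538), betacellulin, was highest in adipocytes. The 5 glands with at least 10 adipocyte nuclei had 514 and 517 CPM (L20), 225 (PI2 replicate 1), 155 and 354 (PI7), against means of at most 29.4 CPM in the other 9 classes. L20 replicate 2 held 418 adipocyte nuclei, and the others of these glands 12 to 26 each. Its log2 fold change was 4.87 (SE 0.37, edgeR adjusted p = 1.54e-20), the largest of the 12, and ran from 2.92 to 5.49 over 19 alternative settings. BTC was also raised outside adipocytes in 1 gland. In L20 replicate 2 the macrophage nuclei had 220 BTC CPM, while macrophages of the other 9 glands had 0 to 25.2, and all nuclei of this gland had 110 CPM against 2.87 to 13.1 in the others. The summed CPM of the 8 adipocyte markers found was 106 in those macrophages, within the 80.0 to 176 of the other 8 classes outside adipocytes in that gland, whose BTC ran from 15.1 to 89.3 CPM. Unassigned nuclei there had 189 BTC CPM and 275 CPM of adipocyte markers, and the adipocytes themselves 4706 CPM of markers. The part of adipocyte RNA in these values was not tested.

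HBEGF (ENSSSCG00000014362, chromosome 2, 142102455 to 142115192), a heparin-binding ligand, was led by macrophages at 38.6 ± 41.2 CPM (SD, n = 10). Their lowest gland had 4.70 CPM (PI2 replicate 1), the median was 20.6 and the highest 139 (PI2 replicate 2). The log2 fold change was 2.51 (SE 0.30, edgeR adjusted p = 1.30e-11), and HBEGF was the single member called in macrophages, beside 10.5% of all genes. T/NK nuclei were called too (1.49, SE 0.37, adjusted p = 7.24e-04), again the single member, beside 8.29% of all genes. That call rested on 65 UMIs and was lost at a log2 fold change of 0.89 when nuclei with 2 or more markers of another class were removed.

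AREG (ENSSSCG00000008963, chromosome 8, 70417935 to 70428106) and EREG (ENSSSCG00000038185, chromosome 8, 70351316 to 70372530) were the scarcest ligands, with 979 and 2097 UMIs in all 10 glands. They lie with BTC in one stretch of 346 kb. Of their UMIs 82.1% and 81.0% came from luminal nuclei, beside 72.7% of those of the ERBB3 row. Luminal nuclei were 55.1% of all nuclei kept, and their share of all UMIs is not given here. Such shares therefore also carry the size and the depth of the class. Without the filter on low counts both were called higher in luminal nuclei, at a setting that called 3629 genes (12.7%) against 1143 with the filter, AREG at a log2 fold change of 3.62 (SE 0.38, edgeR adjusted p = 1.29e-14) and EREG at 3.30 (SE 0.26, adjusted p = 1.34e-22).

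Within the luminal class, both ligands and ERBB4 were higher in hormone-sensing nuclei, defined here by at least 2 of the 7 hormone-response markers found in the files, with ESR1 or PGR, the estrogen and progesterone receptors, among them. These were 6618 nuclei, 9.47% of the luminal ones. AREG, EREG and ERBB4 were the 3 members called higher against the other luminal nuclei of the same gland, and 0 were called lower, beside 1.76% and 0.351% of the 14535 genes tested. For all 3, each of the 10 glands had the higher level in its hormone-sensing nuclei. How many of all genes did so was not counted, and TGFA, which was not called, was higher in 9 of 10. For AREG the L0 replicate 2 values rested on 1 hormone-sensing and 3 other luminal UMIs. AREG also passed the filter on low counts mainly through the hormone-sensing sums. Hormone-sensing nuclei also held more UMIs, with a median 1.45 to 2.36 times that of the other luminal nuclei of their gland, and the part of depth in the gate was not tested; the values compared are CPM of each sum.

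ERBB4 had 548 CPM in hormone-sensing against 143 in other luminal nuclei in G90 replicate 1 and 90.0 against 40.3 in replicate 2. At L0 it had 115 against 104 and 155 against 133. The L20 glands had 297 against 44.0 and 294 against 73.4, the PI2 glands 509 against 43.5 and 631 against 23.6, and the PI7 glands 499 against 54.9 and 292 against 32.3. The 2 groups of nuclei were close at L0 and far apart in involution. Over all glands the log2 fold change was 2.38 (SE 0.39, edgeR adjusted p = 0.00153).

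AREG stood at 14.5 CPM in hormone-sensing and 0.985 in other luminal nuclei in G90 replicate 1, 4.36 and 0.892 in replicate 2, 2.07 and 0.183 in L0 replicate 1, and 0.605 and 0.186 in L0 replicate 2. At L20 it was 41.3 and 1.01 in replicate 1 and 23.3 and 1.33 in replicate 2. PI2 gave 7.51 and 0.212, then 12.8 and 0.0713, and PI7 gave 78.8 and 3.55, then 27.0 and 0.650. Hormone-sensing nuclei were thus lowest in both L0 glands, where they held 6 and 1 AREG UMIs. The log2 fold change over all glands was 4.35 (SE 0.33, edgeR adjusted p = 1.07e-06). Other luminal sums held 1 to 41 AREG UMIs, so AREG passed the filter on low counts mainly through the hormone-sensing sums, where it is high.

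EREG followed the same order of groups. Hormone-sensing and other luminal nuclei had 24.4 and 1.85 CPM in G90 replicate 1, 4.09 and 0.988 in replicate 2, 3.11 and 1.01 in L0 replicate 1 and 1.82 and 0.745 in replicate 2. In L20 EREG was 115 and 5.54, then 93.3 and 7.54, in PI2 30.03 and 2.19, then 177 and 2.28, and in PI7 107 and 7.01, then 48.9 and 5.48. Its log2 fold change was 3.78 (SE 0.34, edgeR adjusted p = 5.96e-06). The largest value, in PI2 replicate 2, came from 103 hormone-sensing nuclei with 97 EREG UMIs.

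**Figure D1:**
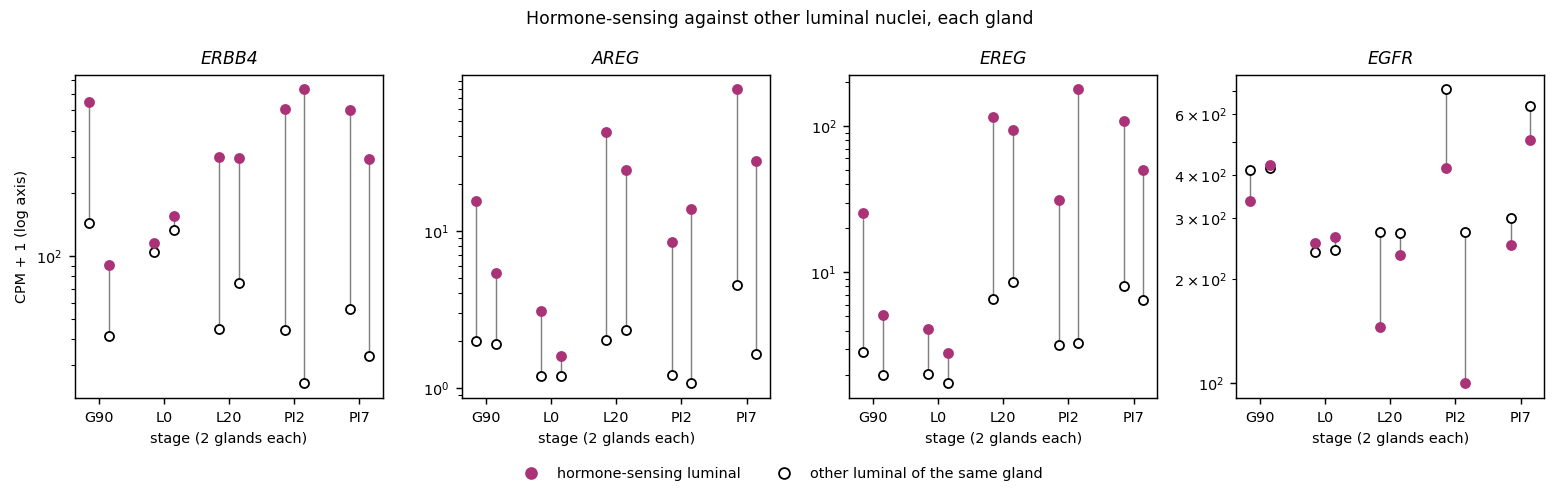
ERBB4, AREG, EREG and, for comparison, EGFR in hormone-sensing (filled) and other luminal nuclei (open) of the same gland, with 1 line per gland, stage on the x axis and CPM + 1 on a log axis. The filled points of ERBB4, AREG and EREG lie above the open ones in 10 of 10 glands and those of EGFR in 3 of 10, and the 2 L0 glands show the smallest gaps for ERBB4.

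The size of the ERBB4 difference differed between the stages in these glands. The log2 ratio of hormone-sensing to other luminal CPM (each + 1) averaged 1.54 (G90), 0.18 (L0), 2.36 (L20), 4.10 (PI2) and 3.15 (PI7), with n = 2 glands each. An exact permutation test of the stage labels over the 10 glands gave p = 0.00106, the smallest that its 945 arrangements can give, and an adjusted p = 0.00317 over the 3 genes tested. With no pseudocount the ERBB4 means were 1.55, 0.19, 2.38, 4.14 and 3.18, with the same adjusted p. For AREG the test gave an exact permutation adjusted p = 0.046, which depended on the pseudocount, since most AREG levels of other luminal nuclei were under 1 CPM. With the pseudocount its means were 2.23, 0.91, 3.89, 3.25 and 4.11 in the same order, highest at PI7. Without it they were 3.08, 2.60, 4.74, 6.32 and 4.93, highest at PI2, and the call was lost (exact permutation adjusted p = 0.0857), as it was with a stricter filter on nuclei (0.192), a stricter gate (0.0529) and mixed barcodes removed (0.182). No stage pattern of the AREG difference is therefore given. EREG averaged 2.25, 0.86, 3.805, 4.52 and 3.35 with the pseudocount (exact permutation adjusted p = 0.0836). These tests and settings were chosen after the values were seen. The gate itself differed along the stages. Nuclei with exactly 2 hormone-response markers were 91.6% and 93.7% of the hormone-sensing ones at L0 and 94.0% in G90 replicate 2, against 51.8% to 75.1% in the other 7 glands, and the part of this in the stage difference was not tested.

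The other 7 members did not pass the test between the 2 kinds of luminal nuclei. EGFR had a log2 fold change of -0.28 (SE 0.12, edgeR adjusted p = 0.172), TGFA 0.18 (SE 0.07, adjusted p = 0.114) and HBEGF -0.67 (SE 0.31, adjusted p = 0.1999). The ratio of TGFA in hormone-sensing to other luminal nuclei ran from 0.914 to 1.22 over the glands and was above 1 in 9 of 10. ERBB2 (0.13), ERBB3 (-0.04), BTC (-0.11) and NRG1 (-0.00) had log2 fold changes near 0, which do not show equal levels in each gland. The ratio of NRG1 ran from 0.496 to 4.41 over the glands and was above 1 in 3 of 10. That of BTC ran from 0 to 1.77 and was above 1 in 5 of 10.

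For the 3 members called higher in hormone-sensing nuclei, the 250 bases before the RefSeq gene start (Sscrofa11.1) are shown 5′ to 3′ on the gene's own strand, because AREG and EREG are neighbours called together and textbook regulation of AREG runs through cAMP and estrogen. Capitals mark the motifs searched on both strands: the palindromic estrogen response element, the cAMP response element TGACGTCA and the TATA box TATAAA, which share no bases in these windows.
AREG, chr8:70417685-70417934, plus strand: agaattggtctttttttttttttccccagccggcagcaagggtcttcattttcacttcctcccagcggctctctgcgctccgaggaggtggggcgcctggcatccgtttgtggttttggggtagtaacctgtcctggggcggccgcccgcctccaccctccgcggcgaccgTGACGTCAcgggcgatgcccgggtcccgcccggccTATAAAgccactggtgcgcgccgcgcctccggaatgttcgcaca
EREG, chr8:70351066-70351315, plus strand: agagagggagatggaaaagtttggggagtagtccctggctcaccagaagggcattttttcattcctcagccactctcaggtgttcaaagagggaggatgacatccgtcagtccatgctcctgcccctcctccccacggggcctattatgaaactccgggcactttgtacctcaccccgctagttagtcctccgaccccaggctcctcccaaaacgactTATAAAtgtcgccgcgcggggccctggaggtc
ERBB4, chr15:115096985-115097234, minus strand: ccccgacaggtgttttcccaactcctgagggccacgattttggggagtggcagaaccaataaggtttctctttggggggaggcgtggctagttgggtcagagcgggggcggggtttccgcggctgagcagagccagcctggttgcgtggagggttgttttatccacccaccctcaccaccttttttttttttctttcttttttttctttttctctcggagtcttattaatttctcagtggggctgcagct
AREG held TGACGTCA with its first base at -79 and TATAAA at -44, counted back from -1, the base before the gene start. EREG held TATAAA at -32 and neither of the other motifs, and ERBB4 held none of the 3. Of 19547 promoters of protein-coding genes of the same length, 1.70% held TGACGTCA, 9.76% TATAAA and 0.0102% the full estrogen response element, which none of the 10 members had in this window. GC content was 64.0% for AREG, 56.8% for EREG and 52.8% for ERBB4, beside a median of 57.6% over all promoters. These matches describe letters only.

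Along the stages, none of the 10 members passed the test in the gland as a whole or in luminal nuclei, where at most 18 genes did in any comparison of edgeR's fit over all stages. With 2 glands a stage, the lack of a call does not show that a member stayed level. Fitted on the glands of G90 and L0 alone, edgeR called 407 genes in the whole gland and 929 in luminal nuclei at L0 against G90, and 0 members in both. In edgeR's test of adjacent stages the whole gland gave 0 called members at L0 against G90, L20 against L0, PI2 against L20 and PI7 against PI2, beside 0% of 22695 genes in each. At an unadjusted p under 0.05 there were 2, 5, 1 and 1 members and 1652, 2912, 817 and 464 genes. In luminal nuclei the members called were 0 in all 4 steps, beside 0.00504% of 19832 genes at L0 against G90 and 0% in the other 3 steps, and 3, 3, 3 and 1 members had an unadjusted p under 0.05, as had 2253, 2580, 631 and 539 genes. Across all stages at once 0 of 10 members were called in the whole gland (background 0%) and 0 of 10 in luminal nuclei (background 0.0908%), while 4 members in each had an unadjusted p under 0.05, as had 10.1% and 14.0% of all genes. Tests within other classes called 0 members as well, with 6 members tested in myoepithelial (background 0.0267%), 8 in fibroblast (0.00745%), 7 in blood endothelial (0.0169%) and 6 in macrophage nuclei (0.0234%), of which 1, 1, 1 and 0 had an unadjusted p under 0.05, beside 5.67%, 5.58%, 4.78% and 5.94% of all genes.

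With DESeq2, which called 1157 genes (6.32%) in the whole gland and 976 (5.57%) in luminal nuclei at L20 against L0, the same 3 ligands passed in both: AREG, EREG and HBEGF, all higher at L20. Hormone-sensing nuclei held 670 of the 804 luminal AREG UMIs and 1273 of the 1699 luminal EREG UMIs. Their share of luminal nuclei was 7.47% and 5.95% at L0 but 3.35% and 19.0% at L20, and 1.63% to 17.1% in the other 6 glands, so that luminal sums of both genes also carry this share, whose part was not tested. In luminal nuclei AREG was 0.405 and 0.225 CPM at L0 and 3.72 and 7.71 at L20 (DESeq2 log2 fold change 3.72, SE 0.88, adjusted p = 0.00171), after 4.44 and 1.41 at G90. It was 1.42 and 0.549 at PI2 and 25.2 and 5.34 at PI7, called lower at L0 than at G90 and higher at PI7 than at PI2 by DESeq2, which called 838 genes (4.78%) and 26 genes (0.167%) in these steps. The 2 glands of a stage did not overlap those of the next in any of the 4 steps. How many genes did so was not counted, so this order is not read as a result about AREG. With the filter on low counts edgeR called AREG in none of these steps (edgeR adjusted p = 0.243, 0.163, 0.943 and 0.99995).

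EREG in luminal nuclei was 7.62 and 1.45 CPM (G90), 1.25 and 0.844 (L0), 12.8 and 32.4 (L20), 6.79 and 8.86 (PI2), and 35.6 and 13.2 (PI7). Both L0 glands were the lowest of all, an order not counted over all genes. For EREG the DESeq2 log2 fold change of L20 against L0 was 3.97 (SE 0.76, DESeq2 adjusted p = 4.36e-05). Across all stages edgeR gave an adjusted p = 0.0998. HBEGF in luminal nuclei was 1.25 and 1.52 CPM at L0 and 26.5 and 6.14 at L20 (DESeq2 3.31, SE 0.88, adjusted p = 0.00724), 3.54 and 17.0 at PI2 and 2.84 and 3.97 at PI7. L20 replicate 1 and PI2 replicate 2 stood above their stage partners. Without the filter on low counts edgeR also called AREG (adjusted p = 0.00282), EREG (0.00627) and HBEGF (0.0356) across the stages in luminal nuclei, among 1106 genes (3.97%) against 18 with the filter. DESeq2 also called BTC lower at PI2 than at L20 in the whole gland (-3.36, SE 0.84, adjusted p = 0.0492), 1 of 25 genes called there (0.144%), where L20 replicate 2 had 110 CPM and L20 replicate 1 had 7.87. Neither tool called a receptor, TGFA or NRG1 at any of the 4 steps.

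**Figure D2:**
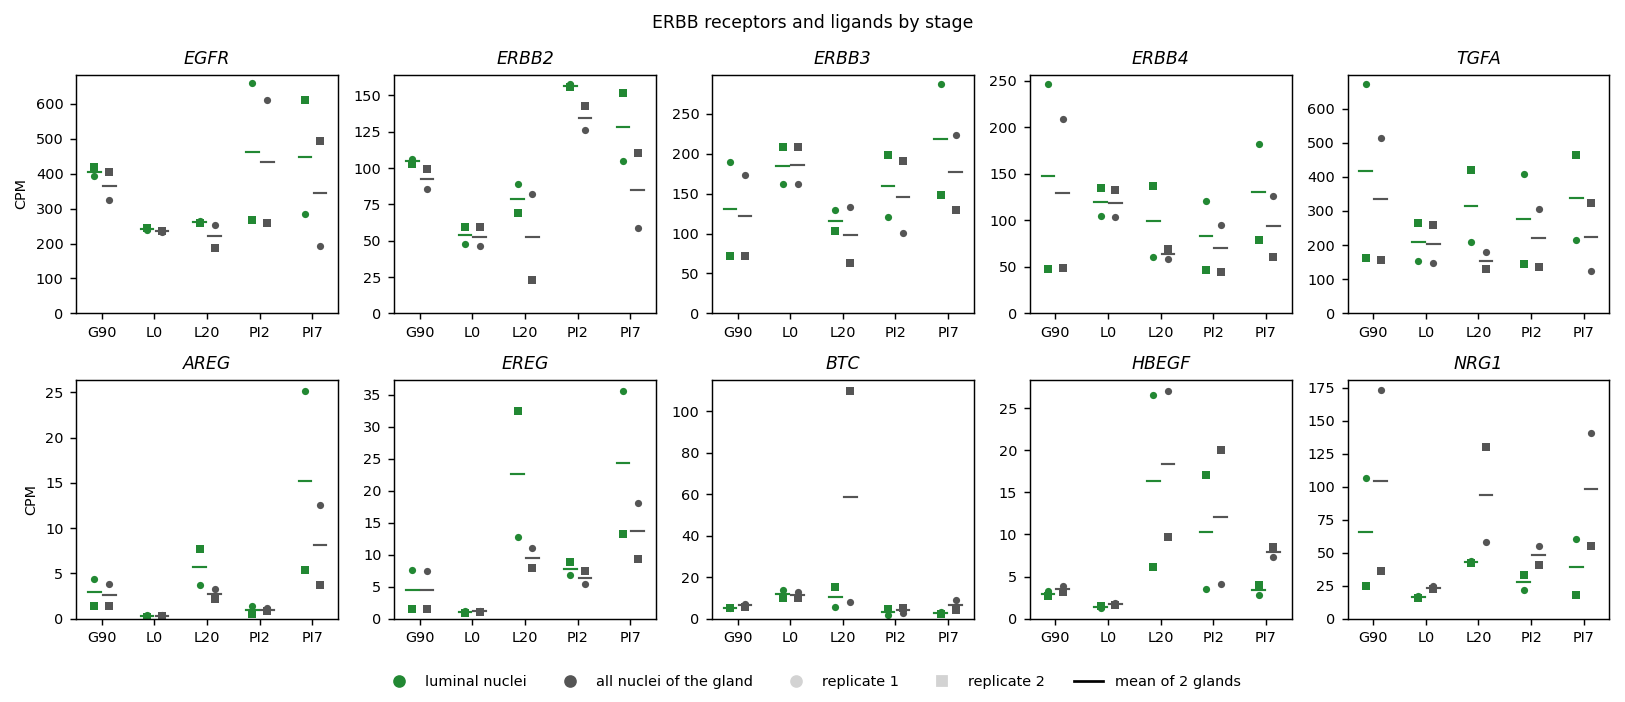
The 10 genes in luminal nuclei (green) and in all nuclei of the gland (grey) by stage, 1 point per gland with circles for replicate 1 and squares for replicate 2, in CPM on linear axes, and a bar for the mean of 2 glands. AREG and EREG are lowest in the L0 glands, ERBB2 has its highest luminal values at PI2 (158 and 156 CPM), and the BTC value of 110 CPM belongs to L20 replicate 2.

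Milk cells, which are whole cells and were prepared with a single-cell kit, were taken from 1 library a stage, so that their values have no replicate. Of 17571 cells kept at L0 and 14514 at L20, 16765 were neutrophils by their markers, 4110 luminal, 2294 macrophages and 1498 T/NK cells. NRG1 was 1246 CPM (95% Poisson interval 1228 to 1264) in neutrophils of L0 milk and 1624 (1598 to 1651) at L20, against 24.2 and 17.2 in luminal cells. TGFA went with it, at 209 and 160 CPM in neutrophils against 11.8 and 7.22 in luminal cells. Both ligands were thus far higher in neutrophils than in the epithelial cells of the same milk. The intervals cover counting error only.

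AREG, EREG, BTC and HBEGF were lower in luminal cells than in macrophages of the same milk. AREG was 25.9 and 53.4 CPM in macrophages and 34.4 and 23.6 in neutrophils, against 1.58 and 0.627 in luminal cells. EREG was 36.4 and 48.2 CPM in macrophages, 24.8 and 36.5 in neutrophils and 1.33 and 1.15 in luminal cells. BTC was 30.2 and 27.2 CPM in macrophages and at most 1.91 in neutrophils, luminal and T/NK cells. HBEGF was 239 and 76.6 CPM in macrophages, 182 and 85.9 in neutrophils and 6.78 and 4.81 in luminal cells. Among neutrophils, macrophages, T/NK and luminal cells, luminal cells had the lowest HBEGF and NRG1 in both libraries. Receptors in luminal cells had EGFR at 29.8 and 12.03 CPM, ERBB2 at 7.45 and 4.81 and ERBB4 at 1.28 and 0.418 (72 and 4 UMIs). In neutrophils EGFR was 3.48 and 1.12 CPM and ERBB4 6.96 and 3.14 CPM, so that in these 2 libraries EGFR was higher and ERBB4 lower in luminal cells. These levels are low, and kept milk barcodes had a median of 491 (L0) and 442 genes (L20). The part of barcode quality in these differences was not tested.

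**Figure D3:**
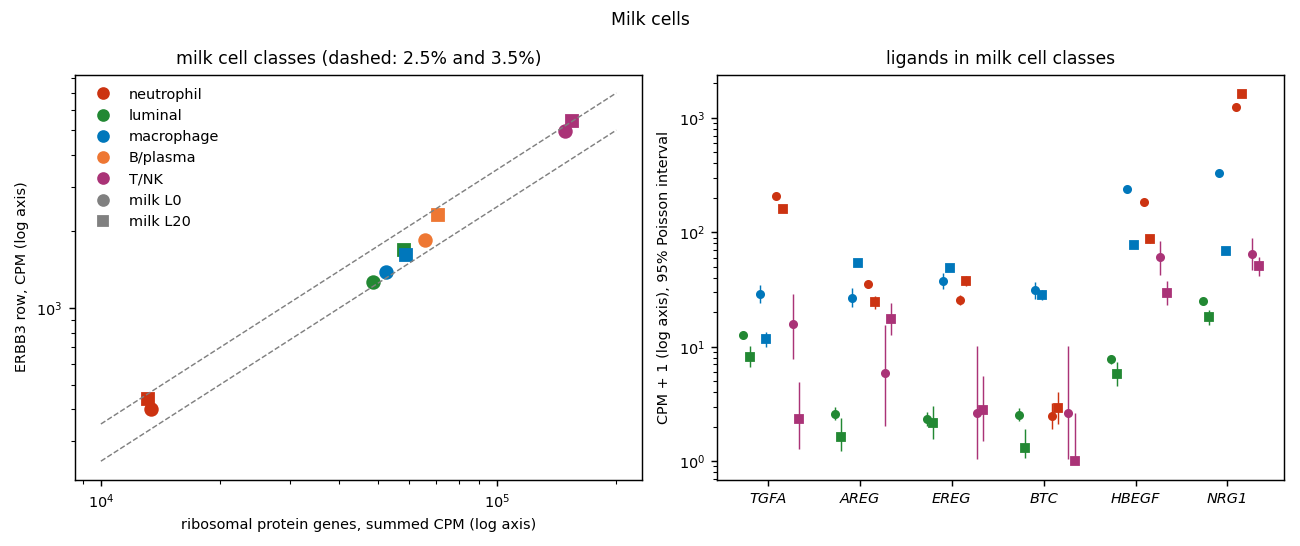
Left, the ERBB3 row against the summed CPM of ribosomal protein genes in milk cell classes of at least 30 cells, both axes log, with dashed lines at 2.5% and 3.5% of the ribosomal sum. Right, ligands in 4 milk cell classes (colours as on the left) at L0 (circles) and L20 (squares), CPM + 1 on a log axis with 95% Poisson intervals. The ERBB3 points run along the dashed lines from 400 CPM in neutrophils to 5433 in T/NK cells, and NRG1 is highest in neutrophils.

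In the G90 section EGFR, ERBB2, AREG and EREG had higher levels in spots richer in luminal markers, and in the PI2 section ERBB2 did, while EGFR there depended on the split. A spot covers several cells, each stage has 1 section, and spots were split into 4 equal parts by the share of UMIs from the 10 luminal markers. From the lowest to the highest part of the G90 section, ERBB2 was 50.3, 75.1, 84.2 and 98.3 CPM and EGFR 42.5, 49.6, 61.2 and 72.7. AREG was 3.56, 4.37, 6.75 and 9.22 CPM and EREG 2.47, 4.37, 5.26 and 8.28. The intervals of the lowest and highest parts did not overlap for these 4 genes, AREG having 2.33 to 5.22 in the lowest and 7.49 to 11.2 in the highest. They overlapped for NRG1 (8.22 and 11.3 CPM) and HBEGF (3.01 and 4.23). How many of all genes did not overlap was not counted. The lowest part was also shallower, with a median of 4489 UMIs a spot against 8479.5 to 10120.5 in the other parts. In the PI2 section these medians were 2743 against 6321 to 9881. The part of depth was not tested. At PI2 ERBB2 was 32.8, 60.0, 79.9 and 118 CPM, whereas EGFR was 65.0, 51.5, 64.8 and 81.7, with overlapping intervals of the lowest (54.5 to 76.98) and highest part (74.3 to 89.6). With 2 equal parts in place of 4, EGFR at PI2 was 55.8 CPM (50.2 to 61.8) in the lower and 72.99 (68.1 to 78.1) in the upper part, whose intervals did not overlap. TGFA had no such order at G90, with 5.48, 4.53, 4.86 and 4.99 CPM. At PI2 TGFA, AREG and EREG had 21, 7 and 30 UMIs in all, too few to read an order. Their intervals of the lowest and highest part overlapped there.

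Over a whole section AREG was 6.14 CPM at G90 (95% Poisson interval 5.42 to 6.93, 263 UMIs) and 0.391 at PI2 (0.157 to 0.805, 7 UMIs), EREG 5.28 and 1.68, and NRG1 10.7 and 1.79. ERBB4 had 32 UMIs in 4721 spots at G90 and 3 in 2248 spots at PI2. BTC had 15 and 2 UMIs, so that for both genes no pattern was detectable at this depth. With 1 section a stage these differences compare 2 sections.

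**Figure D4:**
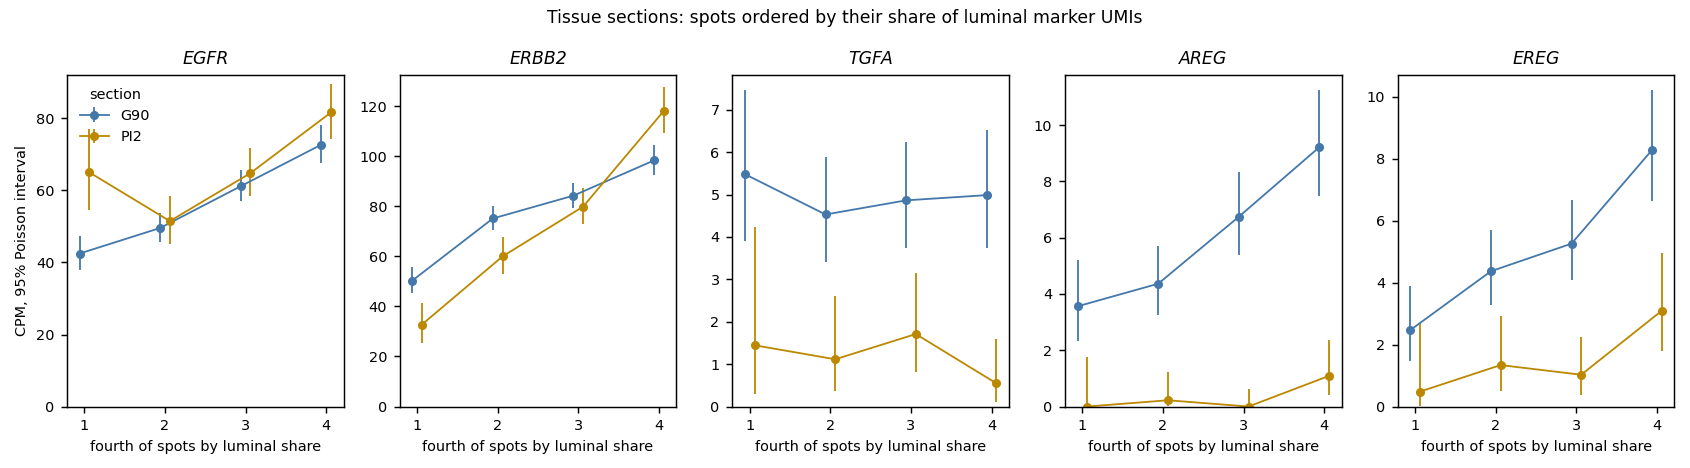
EGFR, ERBB2, TGFA, AREG and EREG in 4 equal parts of the spots of the G90 and PI2 sections, ordered on the x axis from the lowest to the highest share of luminal marker UMIs, in CPM with 95% Poisson intervals. ERBB2 climbs in both sections (50.3 to 98.3 and 32.8 to 118 CPM), while in the G90 section AREG and EREG climb and TGFA stays level.

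Other genes of the pathway were counted in lists of ligands, release genes, signal transducers, inhibitors and targets. Against the other classes, luminal nuclei had 1 of 4 tested further ligands called higher and 1 lower, 0 of 4 release genes, 2 of 22 transducers higher and 1 lower, 1 of 13 inhibitors higher and 3 lower, and 1 of 9 targets higher and 1 lower. Their median log2 fold changes were -0.25, 0.14, 0.09, 0.07 and 0.49, beside 0.15 over all genes, of which 9.8% were called higher and 14.0% lower; the 8 tested members had a median of 1.204. The 5 largest called changes were SPRY4, a feedback inhibitor, at -2.19 (SE 0.32, edgeR adjusted p = 4.11e-09), STAT5B (2.01, SE 0.10, adjusted p = 2.43e-32) and STAT5A (1.90, SE 0.12, adjusted p = 2.15e-26), the transcription factors of milk protein genes, PHLDA1 (2.01, SE 0.16, adjusted p = 2.76e-20), a target, and the ligand NRG4 (-1.73, SE 0.23, adjusted p = 4.68e-10).

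Between hormone-sensing and other luminal nuclei, 0 of 4 further ligands, 0 of 4 release genes, 0 of 24 transducers and 0 of 12 inhibitors passed, and 1 of 10 target rows did, PHLDA1 having 2 rows under separate IDs. That gene was IER3, an immediate early gene, at a log2 fold change of 1.79 (SE 0.28, edgeR adjusted p = 0.00128). The medians of the 5 lists lay between -0.10 and 0.05, beside -0.02 over all genes and 0.06 over the 10 members.

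The patterns most like each receptor were read over the 91 sums of class and gland, as Pearson's r of log2(CPM + 1), a description in which sums from one gland share a library. For EGFR the 3 closest were KCTD3 (r = 0.68), IL34 (0.68) and PARVA (0.67). For ERBB2 they were WWC1 (0.76), IP6K2 (0.74) and DDR1 (0.73), and for ERBB4 LEMD3 (0.62), EIF2AK3 (0.59) and POLA1 (0.59).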

How the data were processed

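Single nuclei of 10 glands, spots of 2 sections and cells of 2 milk libraries were analysed from the deposited UMI count matrices, which the authors made from reads aligned to Sscrofa11.1. Barcodes were kept from 300 genes upwards if mitochondrial UMIs did not exceed 25%, doublets were not called, and classes were gated on fixed markers (at least 2). Counts were summed per class and gland, from at least 10 nuclei, and tested with edgeR 4.0.16 in R 4.3.3 (quasi-likelihood, TMM, Benjamini-Hochberg adjusted p under 0.05 and, for pairs of groups, a log2 fold change over 1), with DESeq2 1.42.0 as an alternative. Stage fits used stage alone, class fits the gland as a block. The scripts were tested on simulated data, where at the spread of these glands the whole-gland stage test missed most of the changed genes. Milk and sections have 1 library a stage and 95% exact Poisson intervals, which cover counting error only. All 10 members were named; of the pathway lists, the 5 called genes with the largest change, and for each receptor the 3 genes most alike. Members and lists were chosen with earlier results of these data known. Total UMIs per gland ran from 18962138 to 53165191.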

Additional observations from a re-analysis of the deposited data

Results flagged for a closer look

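The difference between hormone-sensing and other luminal nuclei varied with the stage for ERBB4 (exact permutation test of stage labels over 10 glands, adjusted p = 0.00317). For ERBB4 the mean log2 ratio was 0.18 at L0 and 4.10 at PI2. Under 5 other settings (class gates, a filter on nuclei, no pseudocount) the exact permutation adjusted p lay between 0.00317 and 0.0127. All of these settings kept the same rule on hormone-response markers, so they cannot show how the difference depends on that rule. For AREG the same exact permutation test gave an adjusted p = 0.046, but the call was lost in 4 of those 5 settings (0.0529 to 0.192) and kept with a gate on marker UMIs (0.0302), and the stage with the highest mean changed from PI7 to PI2 without the pseudocount. A stage difference is thus not established for AREG. The tests were chosen after seeing the data. Of hormone-sensing nuclei, 91.6% and 93.7% had exactly 2 markers at L0 and 94.0% in G90 replicate 2, against 51.8% to 75.1% elsewhere. These glands also had the smallest ERBB4 log2 ratios (0.15 and 0.22 at L0, 1.14 in G90 replicate 2). The part of the gate in the ERBB4 stage difference was not tested.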

How the results depend on the processing

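The 12 pairs of member and class were kept in 19 of 19 alternatives each, except HBEGF in T/NK nuclei, whose log2 fold change was 0.89 with mixed barcodes removed. ERBB4 and EREG in hormone-sensing nuclei were kept in 19 of 19 alternatives and AREG in the 16 of 16 in which it was tested. In the others the filter on low counts left AREG out: a stricter filter on nuclei, mixed barcodes removed, and PI7 replicate 1 left out. AREG passed this filter mainly through the hormone-sensing sums, where it is high, so its count of kept calls adds no support. All alternatives used the same rule on hormone-response markers, and a change of that rule was not tested. Leaving out 1 gland gave 12 to 13 pairs, and 2 to 3 members called in hormone-sensing nuclei.

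Stage calls depended on the tool, the filter and the stages fitted. With only the 2 stages of a step fitted, 407 genes in the whole gland and 929 in luminal nuclei were called at L0 against G90, where the fit over all stages called 0 and 1, and no member was called in any step. DESeq2 called 3 members at L20 against L0 and 1 at PI2 against L20 in the whole gland, among 1157 and 25 genes, and 1, 3 and 1 in luminal nuclei at L0 against G90, L20 against L0 and PI7 against PI2, among 838, 976 and 26 genes. Without the filter on low counts edgeR called 2 members at L20 against L0 and 3 across stages in luminal nuclei, among 309 and 1106 genes, and BTC across stages in each of the whole gland, fibroblasts and macrophages (1 member each), among 614, 486 and 282 genes (0, 1 and 2 with the filter). Leaving out 1 gland gave 0 to 1 members across stages in luminal nuclei (AREG, adjusted p = 0.0479, without PI2 replicate 1) and 0 to 1 in macrophages (BTC, adjusted p = 0.00806, 1 of 34 genes called, without L20 replicate 1, which leaves L20 replicate 2 as the one gland of its stage; BTC was not tested there with all glands). With edgeR and the filter 0 genes were called at L20 against L0 in either. Across stages in luminal nuclei 18 genes were called, and 0 to 621 with 1 gland left out. In hormone-sensing nuclei 307 genes were called, between 116 and 836 over the alternatives. The causes were not tested.

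With the replicate number as a block, 0 members were called in every stage comparison, as without it, and 1 gene in place of 18 across stages in luminal nuclei. The numbers did not pair the glands, since 3 of 10 correlations of deviations between stages were over 0.1 (lowest -0.50, highest 0.36, over 22695 genes).

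Some uncalled log2 fold changes between hormone-sensing and other luminal nuclei turned sign. ERBB2 was -0.0863 and TGFA -0.022 without the filter. NRG1 was 0.37 without the gland as a block, 0.20 with at least 3 markers, 0.0139 with a gate on marker UMIs and -0.315 to 0.0886 with 1 gland left out. BTC was 0.0168 with at least 3 markers and -0.237 to 0.0277 with 1 gland left out. A sign also turned in another comparison, the ERBB3 row in the parts of the PI2 section by luminal share. With 4 parts it had 1447 CPM in the lowest and 1538 in the highest part. With 2 parts it had 1631 and 1586 CPM, a log2 ratio of -0.0408. Few UMIs of AREG, BTC and HBEGF in some sums limit what can be detected there.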
